A study of Mus musculus with 6 samples.

Results

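The Spata genes are mouse genes named as spermatogenesis-associated, and 22 of them were measured here among 18193 genes with a probe set of their own on the Affymetrix arrays. They were taken by symbol (Spata followed by a digit), and together they held 37 of the 45037 probe sets. A gene with several probe sets is represented by the probe set that was brightest, as mean log2 signal, over the 4 shMiwi and shCaf1 arrays, a choice that favours a rise against control. The 22 genes lie on 12 chromosomes and are grouped by name; Spata2 with Spata2l, and Spata5 with Spata5l1, are paralogues.

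All samples were GFP-positive elongating spermatids sorted from testes of wildtype ICR male mice. The testes were transduced at 5 weeks of age with a lentiviral vector carrying GFP, and cells were sorted 1 week later. In the shMiwi group the vector carried a short hairpin RNA against Miwi (Piwil1), the PIWI protein that binds piRNAs in spermatocytes and spermatids. In the shCaf1 group the hairpin was against Caf1, taken here as Cnot7, a deadenylase that shortens poly(A) tails. The control group received the control pSilencer vector with GFP. Each group had 2 arrays, labelled as biological replicates, and the number of mice behind an array is not given in the sources used here. The number of arrays limits the precision of every value, and p-values measure only the spread between these arrays.

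Elongating spermatids are haploid cells in which protamines replace histones, transcription stops, the acrosome caps the nucleus, and the flagellum with its mitochondrial sheath is assembled. Messenger RNAs made earlier are stored, translated late and then removed. Several Spata proteins are known parts of these structures: Spata16 of the forming acrosome, Spata6 of the sperm neck, Spata19 and Spata33 of the mitochondrial sheath, and Spata46 of the sperm head. Others act in many tissues, among them Spata2, Spata5, Spata7 and Spata13.

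Both control arrays were unlike the shRNA arrays and unlike one another. Added hybridization controls read 82.3-fold and 16.2-fold the shRNA mean on control 1 and control 2, against 0.941-fold and 0.806-fold in shMiwi and 1.1-fold and 1.2-fold in shCaf1. Values against control are therefore given as deposited (the deposited scale), after dividing each array by these hybridization controls (the hybridization scale), and as the percentile of a probe set within its own array, which no scaling of a whole array changes. Over the 22 Spata probe sets, Pearson's r of the log2 signals was 0.994 for the pair of shMiwi arrays, 0.996 for the pair of shCaf1 arrays and 0.045 for the controls. These are correlations across genes, which are not independent replicates. Piwil1 read 9780 and 10392 in shMiwi, 21881 and 22442 in shCaf1, and 1445360 and 292542 in control. Piwil1 was lower in shMiwi than in shCaf1 (log2 difference -1.14, limma adjusted p = 0.00105). Cnot7 read 4365 and 5012 in shMiwi, 3633 and 4330 in shCaf1, and 2003570 and 188877 in control, and did not differ past the threshold between shMiwi and shCaf1 (0.24, adjusted p = 0.307). On the deposited scale (limma adjusted p under 0.05) and by percentile, both genes were lower than control in both groups. Neither passed on the hybridization scale. There Piwil1 stood at -0.62 in shMiwi and 0.12 in shCaf1 (limma adjusted p = 0.763 and 0.955), and Cnot7 at -1.65 and -2.28 (adjusted p = 0.283 and 0.154). The summed signal of 10 elongating spermatid markers was 131134 and 122938 in shMiwi, 183971 and 201011 in shCaf1, and 2808 and 702591 on control 1 and control 2. Their median percentile was 29 on control 1 and at least 99 on the other arrays. Of the other cell types, 10 Sertoli cell markers summed to 38410 and 34802 in shMiwi, 39795 and 38246 in shCaf1, and 6124 and 25574 in control. On the shRNA arrays these sums were led by Clu and Ctsl, and the markers disagreed in direction. Amh, Fshr and Gata4 were lower in shMiwi than in control, while Cldn11, Ctsl and Sox9 were higher (limma adjusted p under 0.05, deposited scale). For 4 Leydig cell markers the sums were 23954 and 23386 in shMiwi, 19498 and 19853 in shCaf1, and 3444 and 5413 in control. Among these Leydig cell markers Star alone read higher in control, at 2556 and 905, against 770 and 733 in shMiwi. In such bulk samples, fewer cells of a type and less RNA per cell cannot be told apart.

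The probe sets were chosen as the brightest of each gene on the shRNA arrays, so their level there is a description. Within an array, 14 of the 22 lay above the 90th percentile on each shMiwi array and 15 on each shCaf1 array, against 0 on control 1 and 8 on control 2. Their median percentile was 92.6 and 93.3 in shMiwi, 94.7 and 95.1 in shCaf1, and 48.8 and 73.2 in control. Over all genes, with 1 probe set each by the same choice, 17.3% to 17.4% lay above the 90th percentile on the shRNA arrays, against 13.3% on control 1 and 16.5% on control 2. Replicates of the shRNA groups lay close together for these genes. Over the 21 tested genes the median absolute log2 difference between replicates was 0.11 in shMiwi, 0.09 in shCaf1 and 2.40 in control, and over all tested probe sets it was 0.22, 0.19 and 1.28. The single Spata gene not tested was Spata5l1, a paralogue of the ATPase Spata5. Spata5l1 read 13 and 22 in shMiwi, 21 and 10 in shCaf1, and 74 and 97 in control, too dim for the filter on low values.

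**Figure D1:**
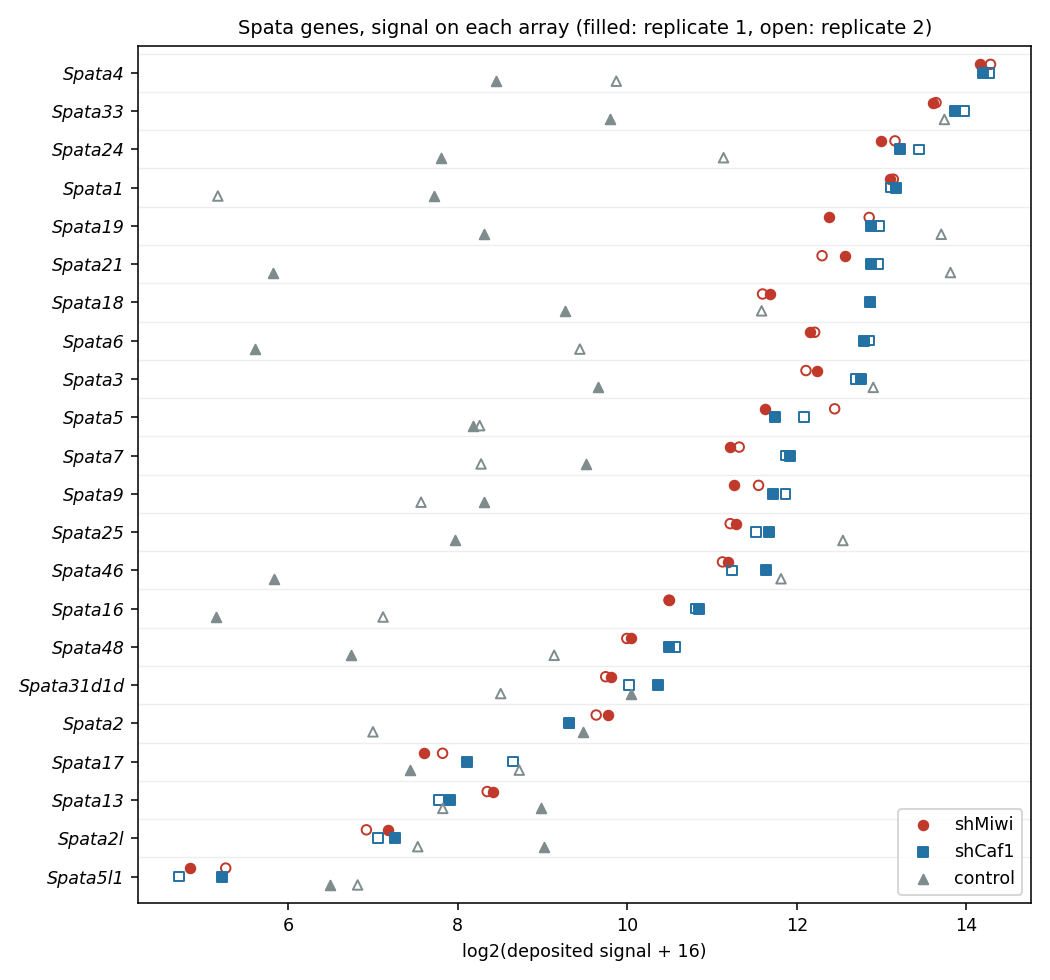
Log2 of the deposited signal plus 16 (horizontal axis) for each of the 22 Spata genes (vertical axis), with shMiwi as red circles, shCaf1 as blue squares and control as grey triangles; filled symbols are replicate 1 and open symbols replicate 2. The shRNA symbols of a gene lie close together, while the control symbols are up to 7.99 log2 units apart among the tested genes.

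The comparison of shMiwi with shCaf1 asks whether the Spata transcripts differ when one or the other factor is targeted, and it uses only the 4 arrays that resembled each other. Of the 21 tested Spata genes, 6 were lower in shMiwi and 0 higher at a limma adjusted p under 0.05 on the deposited scale, against 3.52% of all probe sets lower and 3.81% higher. Taking 1 probe set per gene by the same rule, 4.83% of all genes were lower and 4.47% higher, and the 6 Spata genes are 28.6% of those tested. At an unadjusted p under 0.05, 12 were lower and 2 higher. The limma shares of all probe sets, here and below, are at an adjusted p, and none was counted at an unadjusted p. The median log2 difference of the 21 genes was -0.34, against 0.02 for all probe sets.

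The largest fall was in Spata18, which encodes MIEAP, a p53-inducible protein of mitochondrial quality control. Spata18 read 3261 and 3078 in shMiwi, against 7447 and 7471 in shCaf1. The groups did not overlap, and Spata18 was lower in shMiwi by a log2 difference of -1.23 (SE 0.11, 95% interval -1.47 to -0.99, limma adjusted p = 0.00125), a fold of 0.426. It was the single Spata gene at least 2-fold apart with no overlap, a rule met by 1.32% of all probe sets in the lower and 1.2% in the higher direction. It also passed on the hybridization scale, at -0.83 (adjusted p = 0.00107).

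Spata6, which is needed for the connecting piece between sperm head and tail, read 4539 and 4721 in shMiwi, against 7090 and 7413 in shCaf1. It was lower by -0.65 (SE 0.10, limma adjusted p = 0.0127). Spata7, a protein of the photoreceptor connecting cilium that is mutated in human Leber congenital amaurosis, read 2349 and 2540 in shMiwi, against 3864 and 3732 in shCaf1, and was lower by -0.63 (SE 0.12, adjusted p = 0.0189). For both genes each shMiwi array read below each shCaf1 array. Another Spata6 probe set was lower as well (-1.01, adjusted p = 0.0352), while a further one did not pass (-0.13, adjusted p = 0.661).

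Spata3, a testis transcript, read 4812 and 4396 in shMiwi, against 6925 and 6616 in shCaf1, and was lower by -0.56 (SE 0.11, limma adjusted p = 0.0234). Its probe set is of a kind (x_at) that can also bind other transcripts. The other Spata3 probe sets gave -0.53 (adjusted p = 0.0545) and -0.27 (adjusted p = 0.248) and did not pass. Spata48 read 1038 and 1004 in shMiwi, against 1426 and 1502 in shCaf1, and was lower by -0.51 (SE 0.13, adjusted p = 0.0484). Spata21, a calcium-binding protein, read 6075 and 5017 in shMiwi, against 7462 and 7963 in shCaf1, and was lower by -0.48 (SE 0.12, adjusted p = 0.0488). The last pair of calls lies at the edge of the threshold, although their groups did not overlap.

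Of the remaining 15 tested genes, 12 read lower in shMiwi and 3 higher, and none passed. Spata17, which has calmodulin-binding IQ motifs, read 178 and 210 in shMiwi, against 260 and 387 in shCaf1 (-0.67, SE 0.23, limma adjusted p = 0.113). A second Spata17 probe set stood at -0.01 (adjusted p = 0.986). The 4 genes with a known place in the acrosome, sperm head or mitochondrial sheath had differences between -0.34 and -0.28. For Spata16 the 95% interval was -0.61 to -0.06, for Spata19 -0.66 to 0.04, for Spata33 -0.52 to -0.08 and for Spata46 -0.62 to 0.06. Spata1 and Spata4 lay closest to 0, at -0.02 (interval -0.25 to 0.20) and -0.01 (interval -0.23 to 0.21). Spata4 read 18271 and 19933 in shMiwi, against 18771 and 19669 in shCaf1.

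Spata13, Spata2 and Spata5 read higher in shMiwi, and none of the 3 passed. Spata13, a guanine nucleotide exchange factor, read 326 and 310 in shMiwi, against 224 and 203 in shCaf1 (0.54, SE 0.18, limma adjusted p = 0.109). Spata2, which links the deubiquitinase CYLD to the LUBAC ubiquitin ligase, read 855 and 778 in shMiwi, against 621 and 622 in shCaf1 (0.38, SE 0.15, adjusted p = 0.145). For both genes the groups did not overlap. Spata5, an AAA ATPase of ribosome maturation, read 3139 and 5562 in shMiwi, against 3408 and 4320 in shCaf1 (0.12, SE 0.24, adjusted p = 0.798), and here the shMiwi arrays enclosed the shCaf1 values. Spata2l, the paralogue of Spata2, read 128 and 105 in shMiwi, against 137 and 117 in shCaf1, and also overlapped. Other tested probe sets gave 0.14 for Spata13, -0.32 for Spata2, and 0.15 and -0.40 for Spata5. None of them passed (limma adjusted p between 0.186 and 0.769).

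**Figure D2:**
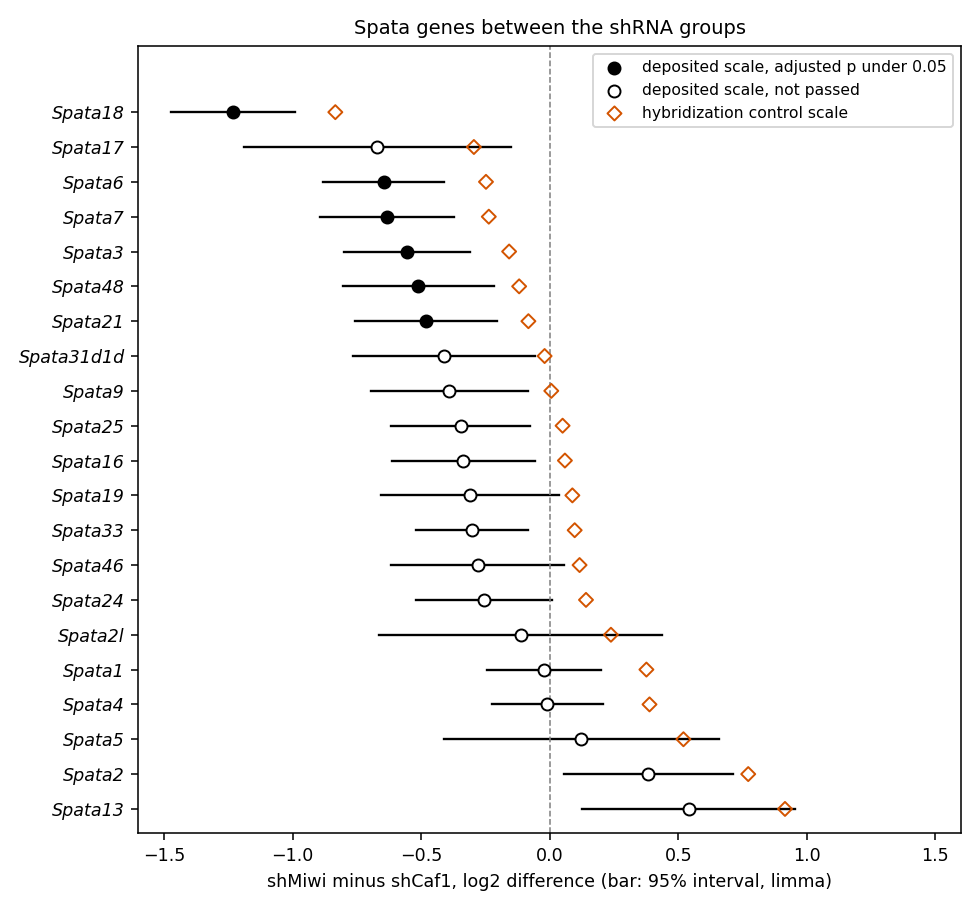
Log2 difference of shMiwi minus shCaf1 (horizontal axis) for the 21 tested Spata genes (vertical axis); circles with 95% limma intervals are on the deposited scale, filled where the adjusted p is under 0.05, and orange diamonds are on the hybridization control scale. The 6 filled circles run between -1.23 for Spata18 and -0.48 for Spata21, and the diamonds lie to the right of the circles.

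On signal alone, 15 of the 21 genes were lower in shMiwi with no overlap and 2 higher, against 25.3% and 28.8% of all probe sets. By percentile within the array, 14 were lower and 4 higher with no overlap, against 26.5% and 27.1%. On the hybridization scale the median over all probe sets was 0.38, where it was 0.02 as deposited, and 1 Spata gene was lower and 2 (Spata2 and Spata13) were higher, against 0.955% and 25.5% of all probe sets. A second tested probe set of Spata2 and of Spata13 did not pass there (limma adjusted p = 0.947 and 0.141). Without a filter on low values 3 were lower and 0 higher, against 0.664% and 0.597%. Relative to the median of all probe sets, the Spata18 difference was -1.25 on the deposited and -1.22 on the hybridization scale, and that of Spata6 was -0.66 and -0.63. The calls other than Spata18 were lost with arrays centred on their medians, against 1.66% of all probe sets lower. All 6 were lost in limma without an intensity trend (7 lower at an unadjusted p under 0.05), against 0.0481% of all probe sets lower at the adjusted p. They were also lost in the fit on all 6 arrays (0 at an unadjusted p under 0.05), where 0% of all probe sets passed in either direction. Without shCaf1 replicate 1 the count was 2, against 1.35% of all probe sets, and without shCaf1 replicate 2 it was 1, against 0.64%. It was 6 without shMiwi replicate 1, against 7.22%, and 6 without shMiwi replicate 2, against 4.22%. Without shMiwi replicate 1 these were the same 6 genes, with Spata5 now higher; without shMiwi replicate 2, Spata21 and Spata48 no longer passed and Spata9 and Spata19 did.

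Markers of the sorted stage moved in the same direction. Of the 10 elongating spermatid markers, 9 were lower in shMiwi than in shCaf1 and 0 higher on the deposited scale, with a median log2 difference of -0.71. On the hybridization scale 3 were lower (Akap4, Gapdhs and Oaz3) and 0 higher, with a median of -0.31. On the deposited scale the round spermatid markers had 2 of 10 lower (median -0.30), the pachytene markers 1 of 10 lower (Piwil1 itself, median 0.02), and spermatogonial markers 0 of 9 in either direction (median 0.07). Sertoli cell markers had 1 of 9 higher (median 0.10) and Leydig cell markers 1 of 4 higher (median 0.16). None of 5 endothelial, 5 macrophage or 1 erythrocyte markers tested passed. On the hybridization scale 0 round spermatid markers were lower (median 0.09), and 4 pachytene, 3 spermatogonial, 2 Sertoli cell, 2 Leydig cell and 2 macrophage markers were higher. The part of these in the Spata differences was not tested.

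Promoters of 3 of the genes lower in shMiwi are shown because the factor CREM, an activator of spermatid genes, binds the element TGACGTCA. The sequences are from RefSeq (GRCm38.p6) and run from 250 bases before to 50 bases after an annotated start. Those of Spata18 (chr5:73651130-73651429), Spata6 (chr4:111719760-111720059) and Spata7 (chr12:98627892-98628191) are all on the plus strand. Spata6 has a second listed promoter (chr4:111777347-111777646), not printed, with 0 matches to the elements searched. Capitals mark TGACG in either orientation, within which TGACGTCA is the full element, and AACGG in either orientation, a MYB element.
Spata18: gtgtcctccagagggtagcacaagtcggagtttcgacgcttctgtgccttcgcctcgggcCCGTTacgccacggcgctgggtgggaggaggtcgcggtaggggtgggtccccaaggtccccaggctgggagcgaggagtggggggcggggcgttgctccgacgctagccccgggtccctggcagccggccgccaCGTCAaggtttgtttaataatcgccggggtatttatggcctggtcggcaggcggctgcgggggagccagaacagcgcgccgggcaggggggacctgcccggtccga
Spata6: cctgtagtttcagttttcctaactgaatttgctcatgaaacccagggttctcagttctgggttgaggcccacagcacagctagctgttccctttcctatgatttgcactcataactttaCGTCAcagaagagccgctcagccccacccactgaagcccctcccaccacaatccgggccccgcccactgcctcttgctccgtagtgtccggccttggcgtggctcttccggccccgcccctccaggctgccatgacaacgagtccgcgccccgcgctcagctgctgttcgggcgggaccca
Spata7: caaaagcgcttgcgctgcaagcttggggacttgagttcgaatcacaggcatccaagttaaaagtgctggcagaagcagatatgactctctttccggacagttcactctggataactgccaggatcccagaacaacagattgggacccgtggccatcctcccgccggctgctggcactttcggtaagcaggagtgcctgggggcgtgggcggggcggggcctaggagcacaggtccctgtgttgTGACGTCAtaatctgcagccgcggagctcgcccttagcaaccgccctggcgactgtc
The full element TGACGTCA was found once, in Spata7, among the 26 promoters listed for 20 of the Spata genes, and in 1.79% of all 32851 promoters in the table. The shorter TGACG, which the full element contains, was found on either strand in 10 of the 26 (38.5%), against 20.8% of all promoters. The listed Spata1 promoters overlap and hold the same site, which is therefore counted more than once. By gene, 8 of the 20 had it, and a share by gene over all genes was not counted. Of the 6 genes lower in shMiwi, 4 had it at 1 or more starts (Spata6, Spata7, Spata18 and Spata48), and so did Spata1, Spata2, Spata5 and Spata5l1. AACGG was in 30.8% of the Spata promoters and 17.4% of all, and GTTGCC, part of the RFX element, in 7.69% and 12.5%. A match describes letters in this window only.

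Genes that share a setting with the Spata proteins gave the following between shMiwi and shCaf1, all on the deposited scale with limma. Of 15 head-tail coupling and sperm neck genes, where Spata6 acts, 0 were higher and 3 lower, with a median of -0.22. Pmfbp1, a head-tail coupling protein, read 3085 and 2651 in shMiwi, against 6183 and 6962 in shCaf1 (-1.19, SE 0.12, adjusted p = 0.00251). Oaz3, the spermatid antizyme, was lower by -1.01 (adjusted p = 0.00188). The third, chosen for naming after its value was seen, was Odf1 (-0.69), of the outer dense fibres. Pmfbp1 and Oaz3 kept a negative sign on the hybridization scale, at -0.80 and -0.61. Of 13 calcineurin and mitochondrial sheath genes, the setting of Spata19 and Spata33, 0 were higher and 3 lower (median -0.14), led by Smcp, a cysteine-rich protein of the sheath, at -0.72 (adjusted p = 0.0113) and Tbc1d21 at -0.60 (adjusted p = 0.0225); the third was Gpx4, a selenoprotein of the sheath. Odf1, Oaz3 and Smcp in these lists are also among the elongating spermatid markers.

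Of 15 globozoospermia and acrosome genes, the setting of Spata16, 1 was higher and 1 lower. Actl7a, an actin-like protein of the sperm head, was lower in shMiwi by -0.85 (SE 0.12, limma adjusted p = 0.0076), and Agfg1, a protein of acrosome formation, was higher by 0.54 (SE 0.13, adjusted p = 0.0413). Of 5 photoreceptor cilium genes found, 1 was lower: Rpgrip1, the binding partner of Spata7 in the retina, at -0.54 (adjusted p = 0.0395), while Nphp4 at 0.14 did not pass (adjusted p = 0.642). Rpgrip1 read 2875 and 2904 in shMiwi, against 3831 and 4608 in shCaf1. Of 8 AAA ATPase and ribosome maturation genes, the setting of Spata5, 1 was higher, Mdn1 at 0.56 (adjusted p = 0.0412), and Rsl24d1 at -0.48 did not pass (adjusted p = 0.098). None of 12 meiotic recombination genes and none of 6 CYLD and LUBAC genes passed; the largest differences were 0.48 for Rpa3 and 0.40 for Dmc1, and 0.33 for Cyld and 0.31 for Ikbkg.

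Families picked by symbol in the same way stood beside these counts. Of 35 Tex genes (testis-expressed), 9 were lower and 2 higher in shMiwi than in shCaf1 (median -0.19). Of 10 Spag genes (sperm-associated antigens), 1 was lower and 2 higher (median -0.004). The 28.6% of Spata genes lower thus lay next to 25.7% of Tex genes, and the difference between these families was not tested.

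For shMiwi against control, 8 of the 21 tested Spata genes were higher and 0 lower on the deposited scale at a limma adjusted p under 0.05, against 16.9% of all probe sets higher and 26.4% lower. With 1 probe set per gene, 20.7% of all genes were higher and 20.2% lower. For shCaf1 against control the same 8 genes were higher and 0 lower, against 15.5% and 26% of all probe sets, and 19.2% and 19.8% of genes. The 8 genes are Spata1, Spata4, Spata5, Spata6, Spata7, Spata9, Spata16 and Spata24. Spata1 and Spata16 would not have passed the filter on low values on the control arrays alone, so they had to differ in order to be tested. At an unadjusted p under 0.05, 9 were higher in shMiwi and 10 in shCaf1, and 0 were lower in either. The share of all probe sets at that threshold was not counted. Both comparisons rest on the same control arrays, so they are not independent. Where the controls of a gene lie far apart, the spread shared by the groups is too small for them, which makes the p-value too small.

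Spata1, which had to differ in order to be tested, had the largest difference, so its p-values are a description. It read 8731 and 8993 in shMiwi, 9163 and 8833 in shCaf1, and 194 and 20 in control. All shRNA values lay above both control values, by a log2 difference of 6.67 in shMiwi (SE 0.86, limma adjusted p = 0.00585) and 6.70 in shCaf1 (adjusted p = 0.00665). Within its array, Spata1 stood at percentiles 98.8 and 98.7 in shMiwi and 98.6 and 98.4 in shCaf1, against 41.3 and 7.7 in control.

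Spata4 read 18271 and 19933 in shMiwi, 18771 and 19669 in shCaf1, and 333 and 920 in control, with log2 differences of 5.06 (SE 0.58, limma adjusted p = 0.00512) and 5.07 (adjusted p = 0.00601). Spata6 read 4539 and 4721 in shMiwi, 7090 and 7413 in shCaf1, and 33 and 679 in control, with differences of 4.66 (SE 1.23, adjusted p = 0.0316) and 5.30 (adjusted p = 0.0226). Spata16, the acrosomal protein that is mutated in human globozoospermia, read 1421 and 1424 in shMiwi, 1830 and 1770 in shCaf1, and 19 and 123 in control. Its differences were 4.36 (SE 0.68, adjusted p = 0.00808) and 4.69 (adjusted p = 0.00792), and Spata16 too had to differ in order to be tested. For these genes too, all shRNA arrays lay above both controls.

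Spata5 read 3139 and 5562 in shMiwi, 3408 and 4320 in shCaf1, and 273 and 290 in control, the closest agreement of the controls among these genes. It was higher by 3.82 in shMiwi (SE 0.43, limma adjusted p = 0.00512) and by 3.70 in shCaf1 (adjusted p = 0.00603). Spata9 was higher by 3.46 and 3.85 (adjusted p = 0.00536 and 0.0057), Spata7 by 2.37 and 3.0 (adjusted p = 0.0175 and 0.0102), and Spata24, also called TIPT, by 3.61 and 3.86 (adjusted p = 0.0472 and 0.0401), each time in shMiwi and in shCaf1. Spata9 read 2433 and 2978 in shMiwi, 3362 and 3715 in shCaf1, and 302 and 174 in control. Spata7 read 717 and 294 in control, below the shRNA values given above. Spata24 read 8103 and 9119 in shMiwi, 9527 and 11088 in shCaf1, and 207 and 2233 in control.

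**Figure D3:**
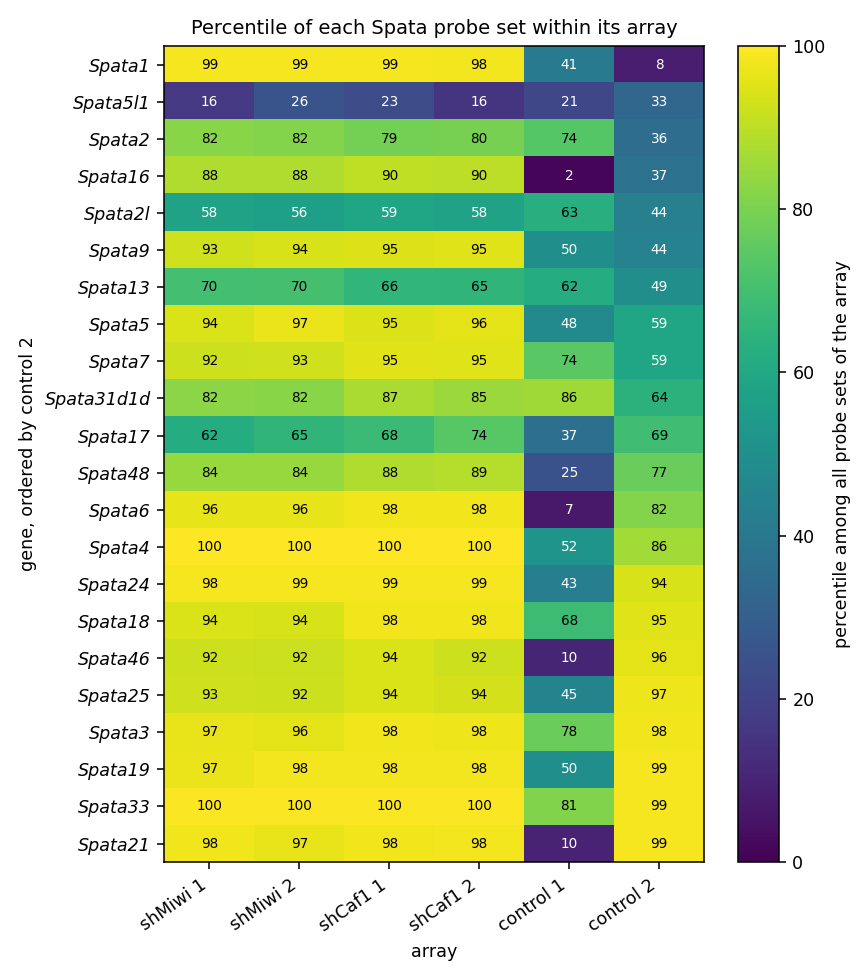
Percentile of each Spata probe set among all probe sets of its array (colour and number, 0 to 100), with genes as rows ordered by control 2 and the 6 arrays as columns. The 4 shRNA columns look alike, control 1 has no gene above the 90th percentile, and 8 genes exceed it on control 2.

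The other Spata genes split by control array. Spata3, Spata19, Spata21, Spata25, Spata33 and Spata46 were bright on control 2 and much dimmer on control 1, a grouping made after their values were seen. Spata19, a mitochondrial protein of sperm needed for male fertility in mice, read 5290 and 7382 in shMiwi, 7514 and 7988 in shCaf1, and 301 and 13316 in control. Spata21 read 6075 and 5017 in shMiwi, 7462 and 7963 in shCaf1, and 40 and 14360 in control, the widest gap between controls in the family. Spata33, which ties the phosphatase calcineurin to sperm mitochondria, read 12447 and 12761 in shMiwi, 14954 and 16138 in shCaf1, and 875 and 13665 in control.

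Spata46, a sperm head protein, read 2312 and 2214 in shMiwi, 3158 and 2396 in shCaf1, and 41 and 3581 in control. Spata25 read 2464 and 2358 in shMiwi, 3235 and 2910 in shCaf1, and 234 and 5951 in control. Spata3 read 4812 and 4396 in shMiwi, 6925 and 6616 in shCaf1, and 787 and 7631 in control. In this set, on the deposited scale, the shRNA values lay above control 1 throughout and, in shMiwi, below control 2. No difference from the control mean passed there (limma adjusted p between 0.29 and 0.61 in shMiwi). By percentile Spata33 lay above both controls, at 99.5 on each shRNA array against 80.9 and 98.7 in control. The other genes of the set stayed below control 2 by percentile in shMiwi. In shMiwi the log2 difference from control 1 was between 2.52 for Spata3 and 6.62 for Spata21, and that from control 2 between -1.38 for Spata21 and -0.12 for Spata33. The elongating spermatid markers likewise summed to 2808 on control 1 and 702591 on control 2, and the part of that in these values was not tested.

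Spata18 read 3261 and 3078 in shMiwi, 7447 and 7471 in shCaf1, and 598 and 3053 in control, so that the shMiwi values were close to control 2 and the shCaf1 values above it. Its difference from control did not pass in shMiwi (1.21, SE 0.80, limma adjusted p = 0.27) or in shCaf1 (2.45, SE 0.80, adjusted p = 0.0597). Spata48 read 1038 and 1004 in shMiwi, 1426 and 1502 in shCaf1, and 91 and 547 in control, and did not pass in shMiwi (2.08, adjusted p = 0.091) or in shCaf1 (2.59, adjusted p = 0.0521).

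**Figure D4:**
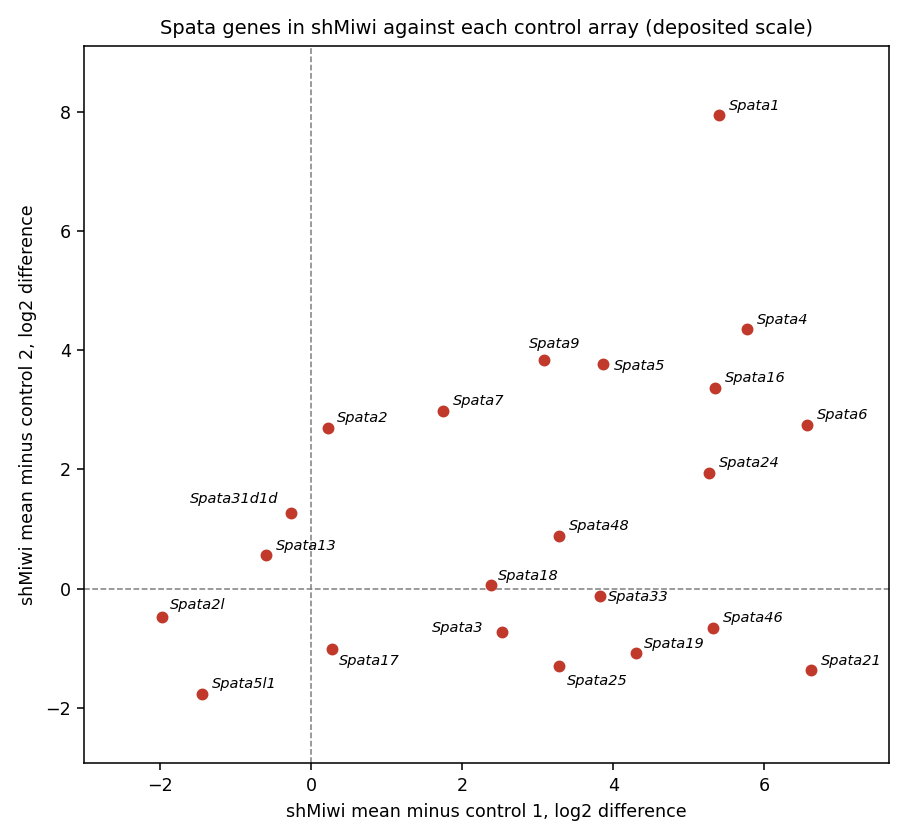
Log2 difference of the shMiwi mean from control 1 (horizontal axis) and from control 2 (vertical axis) on the deposited scale, 1 point for each of the 22 Spata genes. Spata1, Spata4, Spata6 and Spata16 lie far above 0 on both axes, while Spata21 lies at 6.62 and -1.38.

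Spata2, Spata2l, Spata13, Spata17 and Spata31d1d did not differ from control past the threshold. Spata2 read 855 and 778 in shMiwi, 621 and 622 in shCaf1, and 698 and 112 in control, and did not pass (1.46 in shMiwi and 1.08 in shCaf1, limma adjusted p = 0.209 and 0.338). Spata2l had the lowest difference of the tested genes, at -1.22 in shMiwi (SE 0.57, adjusted p = 0.142) and -1.11 in shCaf1 (adjusted p = 0.177), and turned to 2.63 and 2.39 on the hybridization scale. It read 128 and 105 in shMiwi, 137 and 117 in shCaf1, and 502 and 169 in control. Spata13 read 326 and 310 in shMiwi, 224 and 203 in shCaf1, and 489 and 211 in control (-0.02 in shMiwi and -0.56 in shCaf1, adjusted p = 0.977 and 0.382), and these signs turned to 3.92 and 3.0 on the hybridization scale. Spata17 read 178 and 210 in shMiwi, 260 and 387 in shCaf1, and 157 and 407 in control (-0.37 in shMiwi and 0.30 in shCaf1, adjusted p = 0.605 and 0.679), with 3.13 and 3.43 on the hybridization scale. Spata31d1d, of the Spata31 family of near-identical genes whose transcripts its probes may share, read 882 and 842 in shMiwi, 1300 and 1020 in shCaf1, and 1038 and 348 in control (0.50 in shMiwi and 0.92 in shCaf1, adjusted p = 0.515 and 0.256).

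On the scale of the hybridization controls all 21 tested Spata genes were higher than control in both groups, against 90.4% of all probe sets in shMiwi and 87.6% in shCaf1, a share near that of the family, and 0 were lower, against 0.0962% and 0.037%. There the median over all probe sets was 3.58 in shMiwi and 3.15 in shCaf1, where it was -0.20 and -0.25 as deposited. Relative to these medians, Spata1 stood at 6.88 on the deposited and 5.58 on the hybridization scale in shMiwi, Spata4 at 5.27 and 5.59, and Spata5 at 4.02 and 3.98. By percentile, which neither scale moves, 12 of 21 genes were higher than both controls with no overlap in shMiwi and 13 in shCaf1, against 37.9% and 38% of all probe sets, and 0 were lower, against 28.6% and 28.4%. With 1 probe set per gene by the same choice, 5998 of 14214 genes were higher and 3444 lower in shMiwi. In shCaf1 these were 6066 and 3404. At least 2-fold apart with no overlap were 11 genes higher and 1 lower (Spata2l) in shMiwi, against 26.6% and 35.7% of all probe sets, and the same counts in shCaf1, against 25.6% and 35.6%. With 1 probe set per gene, 4567 of 14214 genes were higher and 4007 lower in shMiwi, and 4476 and 3962 in shCaf1. The higher Spata genes by percentile and by the 2-fold rule include Spata1 and Spata16, which had to differ in order to be tested. Without a filter 8 were higher and 1 lower in shMiwi, against 10.2% and 29.9%, and 9 and 1 in shCaf1, against 9.35% and 28.9%. With 1 probe set per gene and no filter, 2951 of 18193 genes were higher and 4094 lower in shMiwi, and 2746 and 3962 in shCaf1. Without control 1 the median log2 difference of the 21 genes in shMiwi was 0.88, against -0.36 for all probe sets. Without control 2 it was 3.28, against -0.31. Without shMiwi replicate 1 and replicate 2 it was 2.06 and 2.11, against -0.26 and -0.15. In shCaf1 the median was 1.39 without control 1, against -0.35, and 3.74 without control 2, against -0.37. Without shCaf1 replicate 1 and replicate 2 the shCaf1 median was 2.45 and 2.56, against -0.27 and -0.21. Without either shCaf1 array, the count of higher genes in shMiwi was 5, against 9.07% of all probe sets without shCaf1 replicate 1 and 9.05% without shCaf1 replicate 2.

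Other families moved against control as well. Of 10 Spag genes, 7 were higher and 0 lower in shMiwi and in shCaf1, and of 35 Tex genes 12 were higher and 2 lower in shMiwi and 11 and 2 in shCaf1. Among the setting lists, shMiwi against control had 8 of 15 acrosome genes higher and 1 lower, 5 of 15 sperm neck genes higher and 0 lower, 4 of 12 meiotic recombination genes higher and 1 lower, and 3 of 13 calcineurin and sheath genes higher and 0 lower. For the cilium genes of the photoreceptor it was 4 of 5 higher and 1 lower, for the AAA ATPase list 6 of 8 higher and 0 lower, and for the CYLD and LUBAC list 0 of 6 higher and 1 lower, the LUBAC subunit Rnf31 (-3.64, with a positive sign on the hybridization scale). These counts are on the deposited scale. In shCaf1 the same lists had 8 and 0, 5 and 0, 3 and 1, 3 and 0, 4 and 1, 6 and 0, and 0 and 1. The acrosome counts include Dpy19l2, which would not have passed the filter on low values on the control arrays alone. It therefore had to differ in order to be tested, and other genes of these lists and families may have the same limit.

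Probe sets of the same gene disagreed against control for part of the family. Of the 22 genes, 9 had several probe sets. A second Spata5 probe set was higher in shCaf1 (2.12, limma adjusted p = 0.0356) and did not pass in shMiwi (1.72, adjusted p = 0.0623). Another Spata5 probe set, which would not have passed the filter on low values on the control arrays alone and so had to differ to be tested, read 5.45 in shMiwi and 5.30 in shCaf1 as a log2 difference. A second Spata9 probe set read 98 and 98 in shMiwi, 72 and 56 in shCaf1, and 1711 and 941 in control. It was lower by -3.49 in shMiwi (adjusted p = 0.00543) and by -4.01 in shCaf1 (adjusted p = 0.0057), opposite to the member, and turned to 1.30 in shMiwi on the hybridization scale.

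A second Spata2 probe set read 7 and 43 in shMiwi, 24 and 38 in shCaf1, and 1469 and 581 in control, lower by -4.67 and -4.35 (limma adjusted p = 0.00738 and 0.00928). It stood at -0.05 in shMiwi on the hybridization scale. A second Spata24 probe set was lower in shMiwi by -1.70 (adjusted p = 0.0278) and did not pass in shCaf1 (-1.15, adjusted p = 0.0851). In shMiwi it turned to 3.19 on the hybridization scale. A second Spata16 probe set did not pass (0.77 and 0.65, adjusted p = 0.408 and 0.483). The direction of Spata2, Spata9 and Spata24 against control thus depends on the probe set, on the deposited scale. So does that of Spata17 in shMiwi, where a second probe set stood at 1.37 and did not pass (limma adjusted p = 0.0807). A second Spata13 probe set stood at -1.34 in shMiwi and -1.48 in shCaf1 and did not pass (adjusted p = 0.208 and 0.173). Probe sets of Spata5, Spata6 and Spata13 below the filter on low values, which were not tested, also read lower than control. In that order they stood at -1.73, -2.26 and -1.93 in shMiwi and at -1.74, -1.09 and -1.75 in shCaf1.

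**Figure D5:**
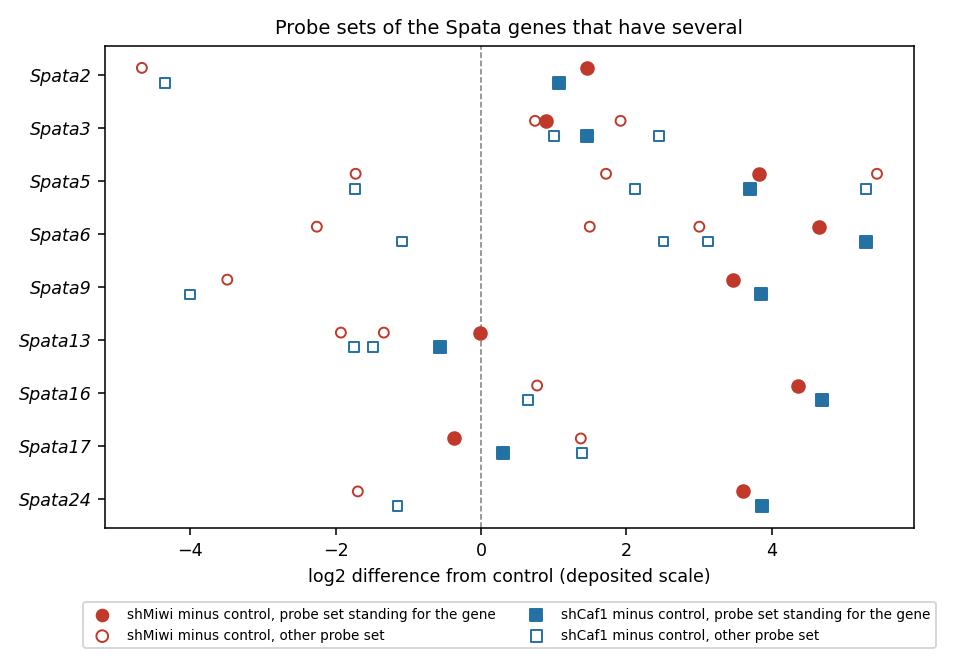
Log2 difference from control on the deposited scale (horizontal axis) for all probe sets of the 9 Spata genes that have several (vertical axis), with shMiwi as red circles and shCaf1 as blue squares; filled symbols are the probe set that stands for the gene. Tested open symbols of Spata2, Spata9 and Spata24 lie left of 0 while their filled symbols lie right of it, as do open symbols of 1 Spata5 probe set (-1.73 and -1.74) and 1 Spata6 probe set (-2.26 and -1.09) that were too dim to be tested.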

How the data were processed

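Per the labels' protocols, RNA was extracted with Trizol, then amplified and labelled with biotin for Affymetrix arrays. The authors deposited 1 signal intensity per probe set for 6 arrays, made with MAS5 per the submitters' processing notes; its version and a genome build are not given in the sources used here. The deposited intensities have a 2% trimmed mean of 500 on every array. Groups and replicate numbers came from the sample titles.

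Of 45101 probe sets, 64 control probe sets were left out. Signals were taken to log2 after adding 16, which understates changes of dim probe sets, and the 27022 with a mean over the 6 arrays above the 40th percentile were tested. Gene symbols came from the platform annotation, using probe sets of 1 gene, and all 22 Spata symbols matched RefSeq (GRCm38.p6). Tests used limma 3.58.1 under R 4.3.3 (lmFit, eBayes with an intensity trend, Benjamini-Hochberg over all tested probe sets). One model of 3 group means over the 6 arrays served the comparisons against control, with 3 residual degrees of freedom, and a fit on the 4 shRNA arrays, with 2, served shMiwi against shCaf1. That model gives all groups 1 spread, although the controls varied more than the shRNA arrays. For genes whose controls lie far apart this spread is too small, and so are their SEs and p-values against control. The hybridization scale divides each array by the geometric mean of 18 spike-in probe sets (cre, bioB, bioC, bioD), set relative to the shRNA arrays; control signals become small there, and the added 16 understates their changes. Scripts were tested on simulated data.

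The members, lists and tests were chosen with earlier results of these data known. All values were given for the 4 largest rises and falls per comparison, for genes called between the shRNA groups and for paralogues, and up to 2 genes per setting list by size of difference between the shRNA groups. Percentiles within an array and the count over 1 probe set per gene were chosen after seeing the data.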

Additional observations from a re-analysis of the deposited data

How the results depend on the processing

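Added constants of 1 and 64, no filter and a filter at the 60th percentile, quantile, median and hybridization scaling, limma without a trend, a replicate block, another choice of probe set and leaving out each array were run for the Spata counts and the genes named for their size. The other choice, by the mean over all 6 arrays, picked the same probe sets. It could change no value, and its values are counted below among those that kept direction and call. Detection calls were not used here, so signal over background is unknown. Against control, the 8 higher genes became 13 with median-centred arrays (40.5% of all probe sets higher and 9.93% lower in shMiwi, 39% and 9.05% in shCaf1) and 21 on the hybridization scale (90.4% and 87.6% higher) in both shMiwi and shCaf1. The count with 1 array left out ranged between 0 and 16 in shMiwi and between 0 and 17 in shCaf1. In the settings that kept all 6 arrays, no lower gene (0 in limma, also at an unadjusted p under 0.05) became 1 without a filter, Spata5l1, in both groups. The shares of all probe sets lower were 29.9% in shMiwi and 28.9% in shCaf1. Against control 2 alone the lowest difference of the tested genes was -1.38 in shMiwi, for Spata21, and -0.95 in shCaf1, for Spata25. Against control 1 alone it was -1.97 in shMiwi and -1.86 in shCaf1, both for Spata2l. Where a group was left with 1 array, that array was assumed to vary like the others. The lowest count of higher genes came from leaving out either array of the shRNA group compared. The highest came from leaving out control replicate 2. Calls over all probe sets fell and rose with these counts, so the counts allow no conclusion about the Spata genes in particular.

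Between shMiwi and shCaf1, the 6 lower genes became 3 without a filter, 1 on median centring and 1 on the hybridization scale. The shares of all probe sets lower were 0.664%, 1.66% and 0.955%. The count was 0 in limma without an intensity trend (7 at an unadjusted p under 0.05), against 0.0481% of all probe sets at the adjusted p. It was 0 in the fit on all 6 arrays (0 at an unadjusted p under 0.05), against 0%. With 1 array left out the median log2 difference of the Spata genes stayed between -0.36 and -0.31. The 0 higher genes (2 at an unadjusted p under 0.05) became 2 on the hybridization scale, against 25.5% of all probe sets. With the replicate number as a block, 13 were lower and 1 higher, against 9.32% and 10.9% of all probe sets. The numbers are not shown to pair the arrays: deviations of replicates correlated at r = 0.181 between shMiwi and shCaf1, 0.004 between shMiwi and control, and 0.061 between shCaf1 and control. The block changed no count against control.

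Signs turned with the scaling or a left-out array. From -1.22 in shMiwi and -1.11 in shCaf1 against control, Spata2l stood at 0.21, 0.39 and 2.63 in shMiwi and at 0.31, 0.50 and 2.39 in shCaf1 with quantile, median and hybridization scaling. Spata13 stood at 1.01, 1.65 and 3.92 in shMiwi and at 0.66, 1.08 and 3.0 in shCaf1, and Spata17 at 0.65, 1.23 and 3.13 in shMiwi. Spata13 in shMiwi was 0.56 without control replicate 1, -0.60 without control replicate 2 and 0.01 without shMiwi replicate 2, and in shCaf1 0.017 and -1.14 without control replicate 1 and replicate 2. Spata17 in shMiwi ranged between -1.02 and 0.27 with either control left out. Spata5 in shMiwi against shCaf1 ranged between -0.29 and 0.53 with 1 array left out, and was -0.05 without shCaf1 replicate 1. Of 356 values of named genes under an alternative, 264 kept direction and call, 61 lost the call, 10 gained it and 21 turned; the cause was not tested.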
